A study of Mus musculus with 9 samples.

Results

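The genes described are 10 enzymes that break down proline and glycine or make and use glycine in the mitochondria, peroxisomes and cytosol: Prodh, Prodh2, Gldc, Amt, Gatm, Shmt1, Sardh, Dmgdh, Pipox and Agxt2. They are a named pathway group, chosen with earlier results of these data known, out of 22180 genes that had a probe set naming a single gene. Where a gene had several probe sets, the probe set was chosen by measured brightness, as the one with the highest mean over all arrays. That applied to Sardh, whose other probe set was dimmer, between 3.03 and 3.57 on the log2 scale. The filter on dim genes left 17740 genes, and the 10 enzymes were among them.

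Kidney cortex was profiled on 9 Affymetrix arrays, 3 per group, from male C57BLKS/J mice aged 20 weeks. In the db/db+TSF group, db/db mice were dosed by gavage for 12 weeks with TSF, the herbal mixture Tang-shen Formula of Chinese medicine, and each day's dose was 2.4 g/kg. The db/db group received saline instead, and the db/m group carried the leptin receptor mutation on a single chromosome copy. The db/db mice of both groups lack the long form of the leptin receptor in every tissue and become obese and diabetic, so body weight and glucose differ from db/m together with genotype. Per the labels, 9 mice made up each of the db/db arms, of which 3 per arm are measured here, and the treatment of db/m mice is not stated. Values below are log2(intensity + 1), and differences are in log2 units. The same limma fit across all 17740 genes gave every standard error (SE) and adjusted p, with Benjamini-Hochberg adjustment over all of them and a threshold of 0.05.

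Proline is oxidised in mitochondria by proline dehydrogenase, and its collagen-derived relative hydroxyproline by a separate dehydrogenase whose pathway ends in glyoxylate and glycine. Glycine is split by the mitochondrial glycine cleavage system, which hands its carbon to folate, or is used by the kidney to make guanidinoacetate, the precursor of creatine. A further route delivers glycine from choline by way of dimethylglycine and sarcosine. The proximal tubule of the cortex is rich in these enzymes and is a main site of amino acid recovery and of serine and guanidinoacetate production.

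Proximal tubule markers are present in whole kidney as well as in cortex, so their levels cannot test the cortex label. Of these markers, Slc34a1 averaged 12.24, 12.17 and 12.17 and Lrp2 11.05, 11.15 and 11.16 in db/db+TSF, db/db and db/m. Of 14 such markers, Slc7a13 fell by 2.70 and Acsm2 by 0.51 in db/db+TSF against db/m (adjusted p = 0.0327 and 0.0346). Calls for these markers were kept in 5 and 4 of 9 fits without 1 array, and 0 of the 14 rose past the threshold. Over all genes, 1.92% were lower and 1.22% higher past the threshold in db/db+TSF against db/m. Summed over the 14, the intensity was 35410 to 35790 in db/db+TSF, 34010 to 36410 in db/db and 35650 to 38160 in db/m. The median differences of this list were 0.04 for db/db+TSF against db/db, -0.01 for db/db against db/m and 0.05 for db/db+TSF against db/m. Loop and distal tubule markers differed more, summing to 9056 to 10220 in db/db+TSF, 9147 to 10300 in db/db and 7622 to 8022 in db/m over 8 genes. Of these 8, 2 rose past the threshold in both db/db groups against db/m, beside 1.41% of all genes. They were Calb1 (0.86, adjusted p = 0.00434, 9 of 9 fits without 1 array) and Pvalb (0.44, adjusted p = 0.0251, 3 of 9 fits). Calb1 also rose by 1.04 in db/db+TSF against db/m (adjusted p = 0.00336, 9 of 9 fits). The summed intensity of 6 immune markers was 151 to 183.1 in db/db+TSF, 191.8 to 371.2 in db/db, with the high end in replicate 3, and 225.7 to 278.2 in db/m. In db/db+TSF against db/m, 2 of the 6 fell past the threshold, beside 1.92% of all genes. They were Cd3e (-0.58, adjusted p = 0.0467, 1 of 9 fits) and Tyrobp (-0.56, adjusted p = 0.0439, 2 of 9 fits). Cd3e also fell by 0.68 in both db/db groups against db/m (adjusted p = 0.0117, 8 of 9 fits). Podocyte markers (4 genes) summed to 784.4 to 834.7 in db/db+TSF, 721.9 to 765.1 in db/db and 610.9 to 710.5 in db/m. These sums did not overlap between the groups and had the same order as Gldc. Podxl was the brightest of the 4 (mean 9.10) and the only 1 without overlap between db/db+TSF and db/db, beside 7.81% of all genes higher. In both db/db groups against db/m, the arrays of 2 of the 4 did not overlap, beside 4.23% of all genes higher and 4.32% lower. Of these 4 markers, 0 passed in any of the 4 comparisons. Collecting duct markers summed to 3252 to 3636 in db/db+TSF, 3266 to 3623 in db/db and 2810 to 3343 in db/m, and endothelial markers to 1855 to 1889, 1838 to 2007 and 1891 to 1955. Adipocyte markers summed to 376.9 to 526.9 in db/db+TSF, 412.2 to 937.5 in db/db and 550.2 to 836.6 in db/m, and liver markers to 624.7 to 787.6, 574.7 to 742.9 and 460.9 to 660. The part of these marker differences in the results below was not tested. Array medians over all probe sets lay between 3.50 and 3.61 log2 units. In bulk tissue, fewer cells of a type and less RNA per cell cannot be told apart.

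The starts of 3 genes, Prodh2, Gldc and Amt, are shown first because their values differed between groups. Each window runs from 250 bases before to 50 bases after an annotated transcript start, 5′ to 3′ on the gene's strand, from RefSeq on build GRCm38.p6. Capitals mark matches to searched motifs. Prodh2 lies at chr7:30493586-30513402, and its window is chr7:30493408-30493707 on the plus strand. Gldc lies at chr19:30098441-30175441, with the window chr19:30175392-30175691 on the minus strand. Amt lies at chr9:108296905-108302302, with the window chr9:108296655-108296954 on the plus strand.
Prodh2: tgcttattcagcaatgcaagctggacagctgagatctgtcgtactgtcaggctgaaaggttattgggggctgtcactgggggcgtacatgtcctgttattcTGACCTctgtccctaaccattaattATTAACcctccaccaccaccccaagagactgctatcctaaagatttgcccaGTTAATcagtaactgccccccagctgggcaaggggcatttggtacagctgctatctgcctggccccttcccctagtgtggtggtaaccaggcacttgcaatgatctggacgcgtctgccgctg
Gldc: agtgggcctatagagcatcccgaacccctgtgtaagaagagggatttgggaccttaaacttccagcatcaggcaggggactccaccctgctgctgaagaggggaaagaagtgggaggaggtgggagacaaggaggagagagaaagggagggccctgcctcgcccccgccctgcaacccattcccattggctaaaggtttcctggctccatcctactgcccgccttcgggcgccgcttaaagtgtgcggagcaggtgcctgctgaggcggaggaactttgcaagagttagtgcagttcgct
Amt: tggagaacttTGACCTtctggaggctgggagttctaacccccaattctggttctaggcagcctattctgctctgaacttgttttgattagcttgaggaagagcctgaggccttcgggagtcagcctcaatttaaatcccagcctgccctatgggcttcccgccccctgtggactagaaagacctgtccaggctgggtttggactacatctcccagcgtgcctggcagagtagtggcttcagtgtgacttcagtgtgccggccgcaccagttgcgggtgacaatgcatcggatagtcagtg

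The searched motifs, on either strand, were CAAAGTCCA for HNF4, GTTAAT as part of the HNF1 site, AGGTCA for nuclear receptors, TGTTCT for steroid receptors, CACGTG as the E-box and TATAAA as the TATA box. HNF1 and HNF4 are transcription factors of proximal tubule and liver. Of 32851 windows in the table, 7.1% held GTTAAT, 16.3% AGGTCA, 19% TGTTCT, 7.15% CACGTG, 13.6% TATAAA and 0.475% CAAAGTCCA. The Prodh2 window held GTTAAT on its other strand from base -124 and on the gene's strand from base -73, and it was the only window of the 10 enzymes with that motif. Neither Gldc nor Amt held it, and no motif of the set was found in the Gldc window.

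CAAAGTCCA was found in 2 of the 10 enzymes, Agxt2 and Pipox, whose values differed little between groups. The bases around those matches, with the motif in capitals, were at chr15:10358502-10358530 on the plus strand for Agxt2 and chr11:77893839-77893867 on the minus strand for Pipox. AGGTCA was found in 5 enzymes, namely Prodh2, Amt, Gatm, Sardh and Agxt2, TATAAA in 1, Agxt2, and TGTTCT and CACGTG in 0. Agxt2 had 2 overlapping windows, and its matches lay in both. These matches describe the letters of the windows and were not tested as binding sites.
Agxt2: cttctaatatCAAAGTCCAgtccagtcag
Pipox: ctagtttagcTGGACTTTGcctccctcct

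Prodh2, which encodes the dehydrogenase that starts hydroxyproline breakdown, was higher than in lean mice with and without TSF. It measured 8.035, 8.382 and 7.952 in db/db+TSF, 7.997, 8.222 and 7.875 in db/db and 7.159, 7.490 and 7.156 in db/m. The 6 arrays of the db/db groups all lay above the 3 db/m arrays, and the db/db+TSF and db/db arrays overlapped. Prodh2 rose 1.70-fold in db/db against db/m (log2 difference 0.76, SE 0.14, adjusted p = 0.0317), 1.81-fold in db/db+TSF against db/m (0.85, SE 0.14, adjusted p = 0.0108) and 1.75-fold in both db/db groups against db/m (0.81, SE 0.12, adjusted p = 0.00659). These comparisons share the db/m arrays. The difference between db/db+TSF and db/db was 0.09, with a 95% interval of -0.22 to 0.41 (adjusted p = 0.842).

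The Prodh2 call in db/db against db/m was kept in 4 of the 9 fits without 1 array, while its difference stayed between 0.67 and 0.87. Leaving out db/m replicate 1 gave an adjusted p of 0.106, and leaving out db/m replicate 3 gave 0.088. Leaving out a db/db array gave 0.0988 for replicate 1, 0.0991 for replicate 2 and 0.0588 for replicate 3. The call in both db/db groups against db/m held in each of the 9 fits that left out 1 array, with a highest adjusted p of 0.0414.

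Prodh, the dehydrogenase that starts proline breakdown itself, measured 9.68, 9.81 and 9.66 in db/db+TSF, 9.46, 9.63 and 9.77 in db/db and 9.23, 9.46 and 9.51 in db/m. The db/db+TSF arrays lay above db/m, while db/db overlapped both. Its differences of 0.32 in db/db+TSF against db/m (SE 0.11, adjusted p = 0.171) and 0.22 in db/db against db/m (SE 0.11, adjusted p = 0.408) did not pass. The gene spans chr16:18071726-18089283 on GRCm38.p6.

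Within each array, Prodh2 minus Prodh averaged -1.59 ± 0.15 in db/db+TSF, -1.59 ± 0.27 in db/db and -2.13 ± 0.20 in db/m (SD, n = 3). This pair was set side by side after the values were seen, and no test was made of it. Only the shift between groups can be read, since the brightness of different probe sets is not comparable.

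**Figure D1:**
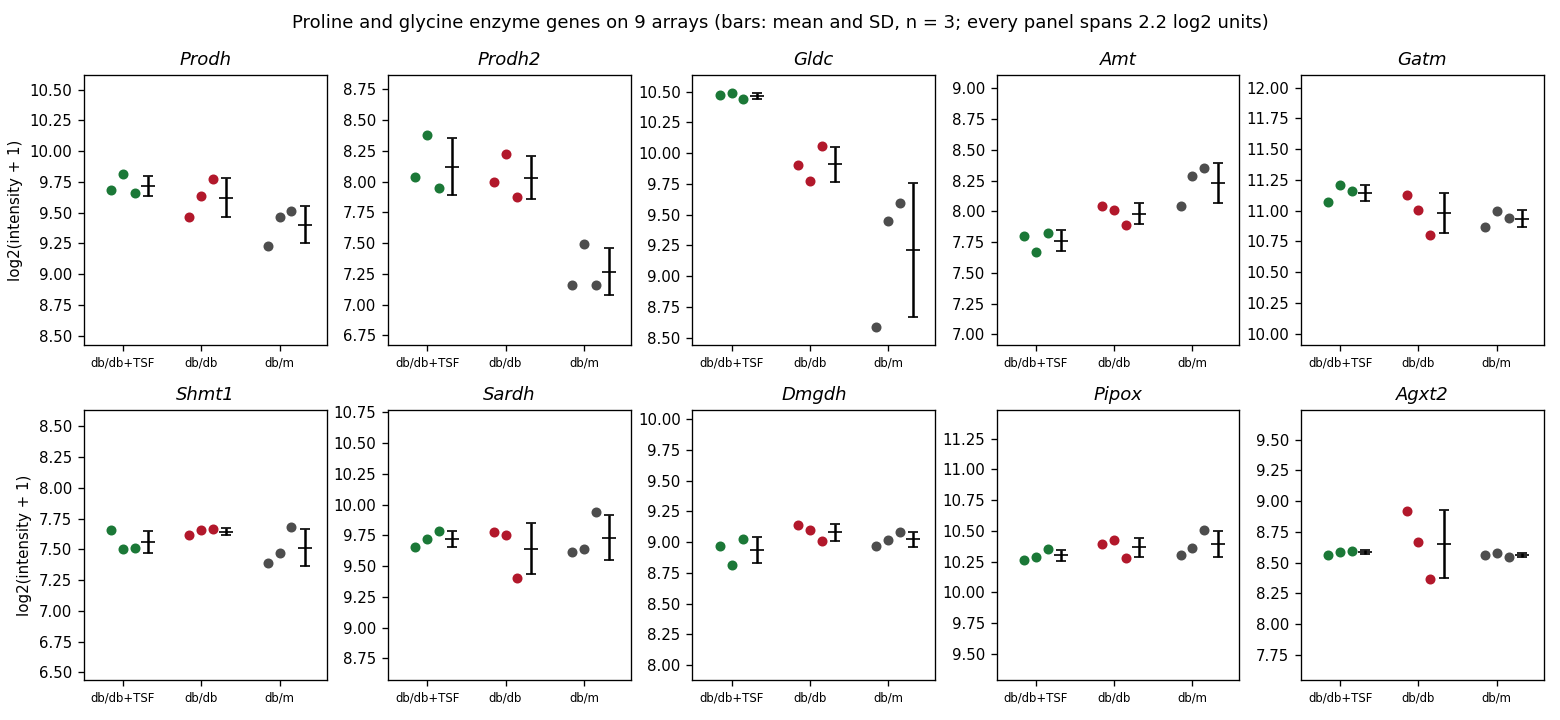
Log2(intensity + 1) of each of the 10 enzymes on the 3 arrays of db/db+TSF, db/db and db/m (points), with group mean and SD (n = 3). Prodh2 is higher in the 6 db/db and db/db+TSF arrays than in db/m, Gldc is highest in db/db+TSF and lowest in db/m, Amt is lowest in db/db+TSF, and the other panels vary within narrower ranges.

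In the glycine cleavage system, Gldc rose and Amt fell in db/db+TSF against db/m. Gldc encodes the decarboxylase that attacks glycine (the P-protein), and it measured 10.48, 10.49 and 10.44 in db/db+TSF, 9.91, 9.77 and 10.06 in db/db and 8.59, 9.45 and 9.60 in db/m. Every db/db+TSF array lay above every db/db array, and every db/db array above every db/m array. Such a full separation in that order was seen in 0.276% of all genes tested, and the opposite order in 0.772%. Db/m replicate 1 was 0.86 below the next db/m array, so the spread was largest in that group (means 10.47 ± 0.03, 9.91 ± 0.14 and 9.21 ± 0.54 in db/db+TSF, db/db and db/m, SD, n = 3).

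Gldc rose 2.38-fold in db/db+TSF against db/m (1.25, SE 0.21, adjusted p = 0.011) and 1.97-fold in both db/db groups against db/m (0.98, SE 0.18, adjusted p = 0.0161). Both calls held in each of the 9 fits without 1 array, with highest adjusted p of 0.0441 and 0.0383. The difference of 0.56 in db/db+TSF against db/db (SE 0.21, adjusted p = 0.362) did not pass, nor did that of 0.70 in db/db against db/m (SE 0.21, adjusted p = 0.155), which was 0.39 without db/m replicate 1. The 95% interval of the db/db+TSF against db/db difference ran from 0.09 to 1.02. With db/db replicate 3 and db/db+TSF replicate 2 both left out, the arrays at the ends of the second principal component (scores of 18.4 and -19.9), the call in both db/db groups was lost (0.93, adjusted p = 0.0545).

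Amt encodes the aminomethyltransferase (T-protein) that passes the carbon of glycine to folate. It measured 7.80, 7.67 and 7.82 in db/db+TSF, 8.05, 8.01 and 7.89 in db/db and 8.04, 8.29 and 8.36 in db/m. The db/db+TSF arrays lay below all others, and db/db overlapped db/m only through db/m replicate 1. Amt fell by 0.47 in db/db+TSF against db/m (SE 0.10, 1.38-fold lower, adjusted p = 0.0367). The call was lost in 7 of the 9 fits without 1 array. Leaving out db/db+TSF replicate 1, 2 or 3 gave an adjusted p of 0.0773, 0.14 or 0.0928, leaving out db/db replicate 1 or 2 gave 0.0561 or 0.055, and leaving out db/m replicate 2 or 3 gave 0.0955 or 0.0882. Its difference of -0.22 between db/db+TSF and db/db did not pass (adjusted p = 0.441), nor did those of -0.36 in both db/db groups against db/m (adjusted p = 0.0624) and -0.25 in db/db against db/m (adjusted p = 0.32).

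Gldc minus Amt within an array measured 2.68, 2.82 and 2.62 in db/db+TSF, 1.86, 1.76 and 2.17 in db/db and 0.54, 1.16 and 1.24 in db/m. The groups did not overlap, as they already did not for Gldc alone. Their means were 2.70 ± 0.10, 1.93 ± 0.21 and 0.98 ± 0.38 (SD, n = 3). This contrast was also chosen after the values were seen and is given as a description. The remaining subunits did not pass in any of the 4 comparisons: Gcsh, the lipoyl carrier protein, averaged 5.045, 4.995 and 5.227 and Dld, the lipoamide dehydrogenase shared with other complexes, 9.21, 9.13 and 9.02 in db/db+TSF, db/db and db/m.

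**Figure D2:**
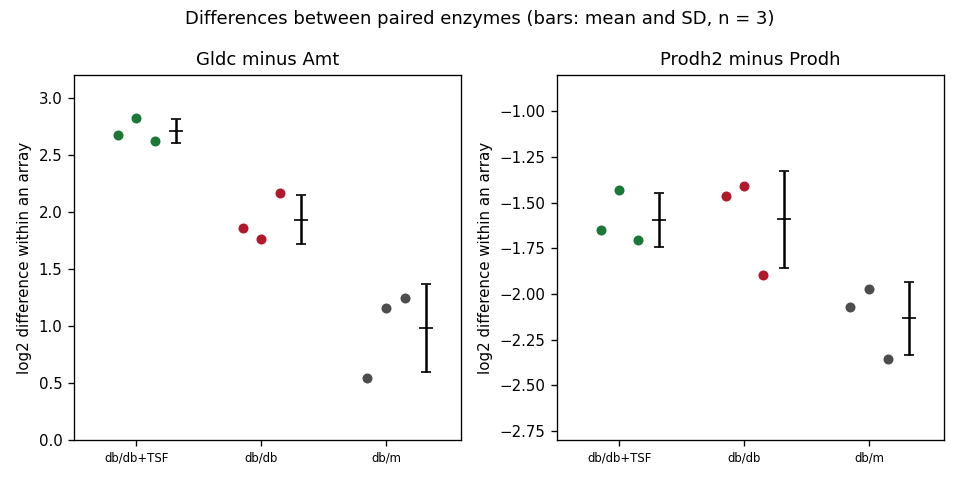
Log2 difference between 2 enzymes on the same array, Gldc minus Amt and Prodh2 minus Prodh, for db/db+TSF, db/db and db/m (points, with mean and SD, n = 3). Both pairs were chosen after the values were seen. Gldc minus Amt separates the 3 groups, as Gldc alone does, at means of 2.70, 1.93 and 0.98. Prodh2 minus Prodh is at -1.59 in db/db+TSF and db/db and -2.13 in db/m.

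Among enzymes that use glycine outside cleavage, Gatm and Shmt1 did not pass in any of the 4 comparisons. Gatm lies at chr2:122594473-122611277 and Shmt1 at chr11:60788897-60811265. Gatm, which joins glycine to arginine in the opening step of creatine synthesis, measured 11.072, 11.204 and 11.156 in db/db+TSF, 11.130, 11.004 and 10.804 in db/db and 10.863, 10.998 and 10.942 in db/m. The db/db+TSF arrays lay above db/m, and db/db overlapped both. Its largest difference, 0.21 in db/db+TSF against db/m, did not pass (SE 0.10, adjusted p = 0.323). Shmt1, the cytosolic enzyme that interconverts serine and glycine, lay between 7.39 and 7.68 on all arrays, both ends being db/m. Its difference in both db/db groups against db/m was 0.09, with a 95% interval of -0.10 to 0.28 (adjusted p = 0.665).

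The enzymes that make glycine from choline, Dmgdh (chr13:93674436-93752823) and Sardh (chr2:27188393-27248332), did not pass in any of the 4 comparisons, and neither did Pipox (chr11:77880614-77893872). Dmgdh, which demethylates dimethylglycine, measured 8.97, 8.82 and 9.02 in db/db+TSF, 9.14, 9.10 and 9.00 in db/db and 8.97, 9.02 and 9.08 in db/m. Sardh, which demethylates sarcosine in mitochondria, measured 9.65, 9.72 and 9.78 in db/db+TSF, 9.77, 9.75 and 9.40 in db/db and 9.62, 9.64 and 9.94 in db/m. Its lowest value was in db/db replicate 3 and its highest in db/m replicate 3, and the difference of -0.09 in db/db against db/m became 0.03 without the db/db array and 0.0159 without the db/m array. Pipox, the peroxisomal oxidase of sarcosine and pipecolate, had the smallest range of the 10, 0.245 over all arrays (10.26 to 10.35 in db/db+TSF, 10.28 to 10.43 in db/db and 10.30 to 10.51 in db/m). The 95% intervals for both db/db groups against db/m were -0.19 to 0.16 for Dmgdh, -0.29 to 0.19 for Sardh and -0.23 to 0.12 for Pipox.

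Agxt2 (chr15:10358516-10410158), a mitochondrial aminotransferase that uses glyoxylate and also handles dimethylarginine, had a wide spread in db/db. It measured 8.57, 8.59 and 8.60 in db/db+TSF, 8.92, 8.67 and 8.37 in db/db and 8.56, 8.58 and 8.54 in db/m. The SD was 0.02, 0.27 and 0.02 in db/db+TSF, db/db and db/m, and the db/db arrays lay on both sides of all other arrays. The difference in spread was not tested. No comparison of Agxt2 means passed, the largest difference being 0.09 in db/db against db/m (adjusted p = 0.783).

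Counted over the 10 enzymes, 1 was higher and 0 lower past the threshold in db/db against db/m, beside 0.592% and 0.462% of all genes. In db/db+TSF against db/m 2 were higher and 1 lower, beside 1.22% and 1.92%, and in both db/db groups against db/m 2 were higher and 0 lower, beside 1.41% and 1.53%. Between db/db+TSF and db/db, limma called 0 of the 10 and 0% of all genes, and the fit without moderation also called 0. There, 1 of 10 (Gldc) had an unadjusted p under 0.05, as did 11.7% of all genes.

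Prodh, Gatm, Shmt1, Sardh, Dmgdh, Pipox and Agxt2 passed in none of the 4 comparisons. The median difference was 0.07 in db/db against db/m, 0.00489 in db/db+TSF against db/db, 0.03 in db/db+TSF against db/m and 0.07 in both db/db groups against db/m, beside 0.00985, -0.02, -0.000183 and 0.00415 over all genes. In db/db against db/m, the arrays of 2 enzymes lay wholly above and of 0 wholly below, beside 10.4% and 8.28% of all genes. Between db/db+TSF and db/db, 1 enzyme (Gldc) lay wholly above and 1 (Amt) wholly below, beside 7.81% and 12.3%. In db/db+TSF against db/m, 4 lay wholly above and 1 (Amt) wholly below, beside 9.76% and 12.4%. For the 6 arrays of both db/db groups against db/m the counts were 2 above and 0 below, beside 4.23% and 4.32%.

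**Figure D3:**
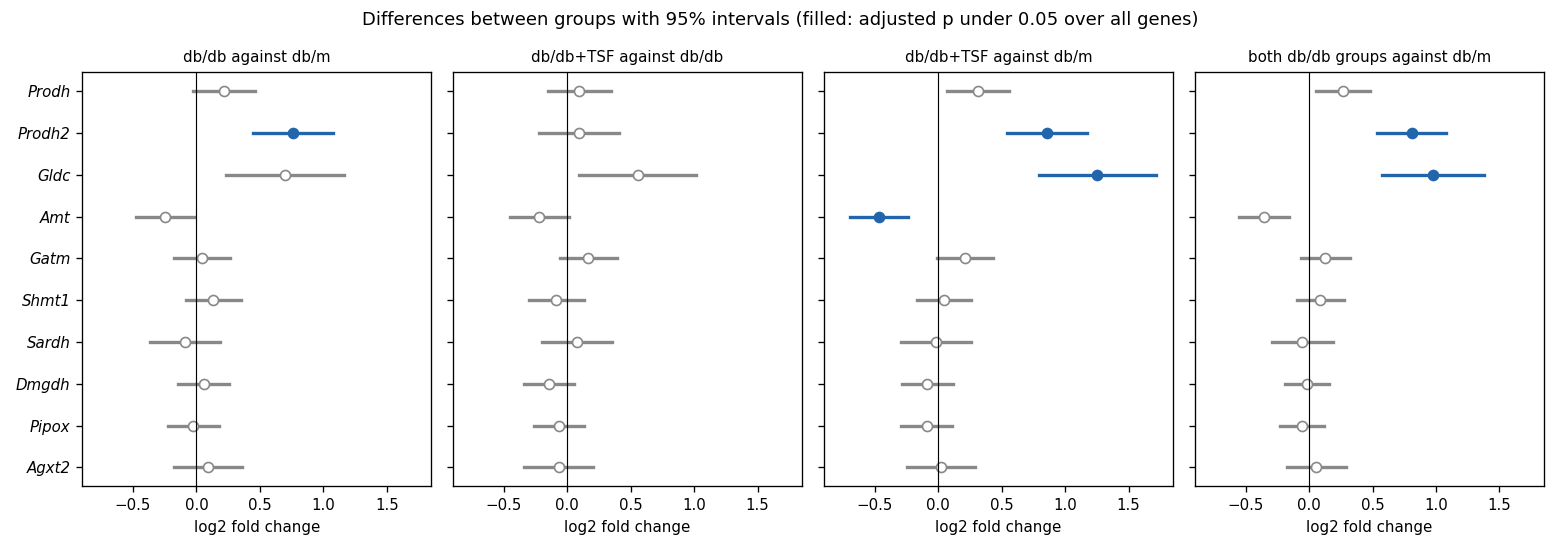
Log2 fold change of each enzyme with its 95% interval in the 4 comparisons, filled where the adjusted p over all genes was under 0.05. Prodh2 is filled in 3 comparisons, Gldc in 2 and Amt in 1, and no enzyme is filled for db/db+TSF against db/db.

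Db/m replicate 1 was the lowest db/m array for 8 of the 10 enzymes and db/db replicate 3 the lowest db/db array for 7. No db/db+TSF array was lowest for more than 4. How often each array was lowest over all genes was not counted, so these counts may not be particular to the 10 enzymes. The pooled within-group SD of single enzymes ran from 0.08 for Pipox to 0.325 for Gldc, against a median of 0.141 over all genes tested.

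Neighbouring enzymes of the same pathways were counted from lists drawn up from textbook knowledge, with earlier results of these data known. In the proline and hydroxyproline list, Oat, the ornithine aminotransferase that connects ornithine with proline and glutamate, was the gene past the threshold, and 8 of 9 tested genes were not. It averaged 10.60 in db/db+TSF, 10.66 in db/db and 10.12 in db/m and rose by 0.50 in both db/db groups against db/m (SE 0.07, adjusted p = 0.00483), a call kept in 9 of 9 fits without 1 array. Aldh4a1, which oxidises the product of proline dehydrogenase, averaged 9.86, 9.69 and 9.85 and did not pass. Hoga1, the mitochondrial aldolase that ends hydroxyproline breakdown, averaged 9.49, 9.69 and 9.83 and did not pass either (-0.34 in db/db+TSF against db/m, adjusted p = 0.0637).

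Among 20 folate and glycine cleavage genes beside the 10, Mthfd1l, a mitochondrial folate enzyme, passed in db/db+TSF against db/m (3.83 and 3.35, difference 0.48, adjusted p = 0.048). It was dim and passed in 1 of 9 fits without 1 array. Shmt2, the mitochondrial counterpart of Shmt1, averaged 10.27 in db/db+TSF, 10.06 in db/db and 10.37 in db/m and did not pass (adjusted p = 0.296 for both db/db groups against db/m). In the lists of glycine and serine supply (12 genes), choline to sarcosine (9), creatine and dimethylarginine (12), lysine and pipecolate (9) and proline and glycine transport (9), 0 genes passed in any of the 4 comparisons by limma.

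Gclc and Gss, which carry out the successive steps of glutathione synthesis, the later of which adds glycine, had the smallest p in the supply list. Gclc averaged 9.44, 9.52 and 9.84 and Gss 8.57, 8.75 and 8.99 in db/db+TSF, db/db and db/m (adjusted p = 0.0794 and 0.123 for both db/db groups against db/m). Gamt, which completes creatine synthesis after Gatm, averaged 7.08, 7.31 and 7.28 (adjusted p = 0.745 in the same comparison). The median differences of the lists in that comparison lay between -0.16 for transport and 0.09 for creatine and dimethylarginine, beside 0.00415 over all genes.

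**Figure D4:**
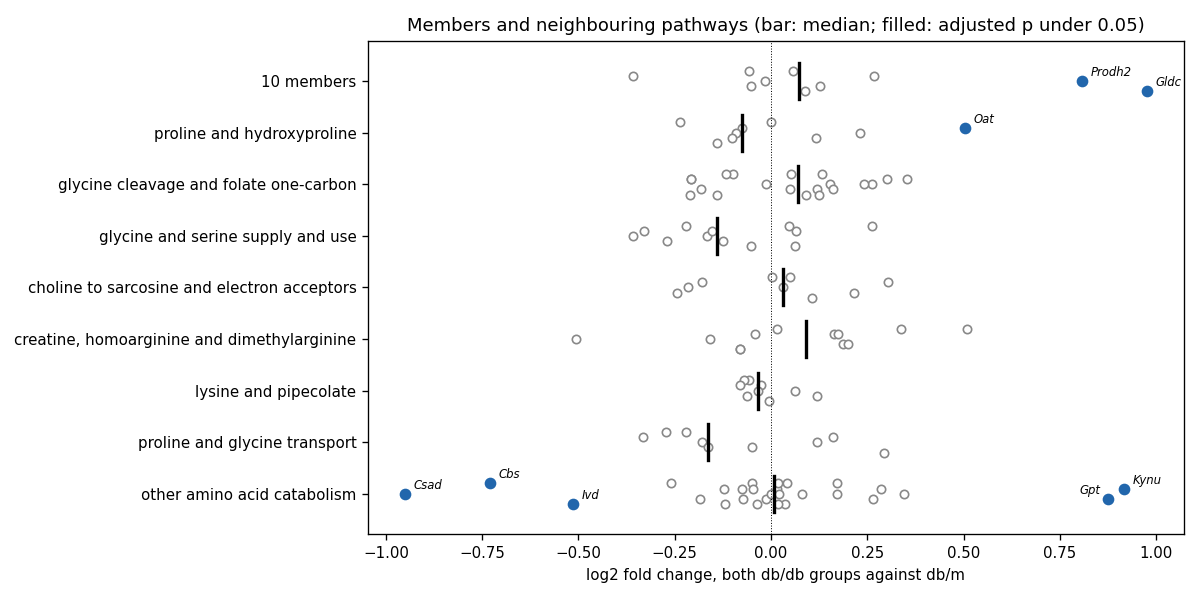
Log2 fold change of both db/db groups against db/m for the 10 enzymes and for the tested genes of 8 neighbouring lists (points), with the list median (bar) and genes past the threshold filled and named. Oat is the filled gene of the proline list, and the filled genes of other amino acid catabolism lie on both sides of 0.

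The genes whose profile over the 9 arrays was nearest to that of each changed enzyme were found by the root mean square difference of centred log2 values. For Prodh2 they were Spp2 (0.112), Wdr72 (0.119) and Agmo (0.134). Having been chosen for nearness on these same arrays, all of them were higher in the 6 arrays of the db/db groups. For Amt they were H2-Q5 (0.056), Ghdc (0.0634) and Fdx1 (0.0657). For Gldc they were Cry1 (0.211), Klk1b5 (0.225) and the model gene Gm3219 (0.228).

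Cry1 encodes a repressor of the circadian clock, and it measured 5.09, 4.90 and 4.85 in db/db+TSF, 4.31, 4.03 and 4.78 in db/db and 3.52, 3.71 and 4.21 in db/m. It was lowest in db/m replicate 1, where Gldc was lowest too, a match that follows from its choice as the profile nearest to Gldc. Of 10 other clock genes tested, Per1 and Per3 were higher and Npas2 and Nr1d1 lower past the threshold in both db/db groups against db/m, beside 1.41% and 1.53% of all genes, and 6 did not pass. Without 1 array, these calls were kept in 3 of 9 fits for Per1, 5 for Per3, 7 for Npas2 and 5 for Nr1d1. Db/m replicate 3 stood apart from db/m replicates 1 and 2, with 7.86 against 5.73 and 5.99 for Npas2 and 4.90 against 5.84 and 5.78 for Per3. The clock repressor Nr1d1 fell to 7.66, 7.80 and 7.83 in db/db+TSF, against 8.71, 9.04 and 9.31 in db/m, with 8.73, 8.85 and 7.96 in db/db (difference of -1.26 between db/db+TSF and db/m, adjusted p = 0.0118). The labels give no time of day for tissue collection, and the part of the clock in the Gldc difference was not tested.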

How the data were processed

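The authors deposited a table of linear intensity values, 1 per probe set and array. Per the submitters' processing notes, Affymetrix Expression Console and Transcriptome Analysis Console were used, with settings for background, normalization and probe summary not given in the sources used here. No detection calls were used. Of 41345 probe sets, 23521 carried 1 gene symbol in the platform annotation, 1814 carried several and were not used, and 15820 non-control probe sets carried none. Intensities were transformed as log2(value + 1), which understates changes of dim genes, and arrays were not rescaled. The brightest probe set stood for a gene, and genes whose mean fell below 2.65, the 30th percentile over probe sets, were left out. Limma 3.58.1 in R 4.3.3 fitted 1 mean per group to all 9 arrays with eBayes. Both db/db groups against db/m is the average of the 2 group means minus db/m. The number of arrays limits precision. The labels call the replicates biological and do not name the animals.

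The 10 enzymes and the pathway lists were chosen with earlier results of these data known. All 10 are named. List genes are named if past the threshold, otherwise up to 2 of smallest p. Aldh4a1, Oat, Gcsh, Dld, Shmt2, Gamt, Lrp2 and Slc34a1 are named whatever their values. For each changed enzyme the 3 genes of nearest profile are named. RefSeq windows matched all 10. Alternatives covered probe set, filter, scaling, pseudocount, variance model, array weights, moderation, arrays in the fit, replicate number, threshold and leaving out each array.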

Additional observations from a re-analysis of the deposited data

How the results depend on the processing

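Prodh2, Gldc and Amt kept their direction against db/m in every alternative run. Without moderation 0 of the 10 enzymes passed in db/db against db/m, in db/db+TSF against db/m and in both db/db groups against db/m, and the calls over all genes were 26, 73 and 101, against 187, 556 and 521. With 1 array left out, 0 to 1 enzymes passed in db/db against db/m. With db/db replicate 3 and db/db+TSF replicate 2 both left out, an alternative chosen after seeing the data, 1 passed in both db/db groups against db/m. Deviations from the group means correlated at -0.0791 to 0.147 between same-numbered arrays, inside the -0.164 to 0.156 of differently numbered arrays. The replicate block left 1, 0, 2 and 2 enzymes past the threshold in the 4 comparisons. Their order was db/db against db/m, db/db+TSF against db/db, db/db+TSF against db/m and both db/db groups against db/m. Amt in db/db+TSF against db/m no longer passed with the block (adjusted p = 0.0731). Over all genes, an adjusted p of 0.1 called 442, 1012 and 953 genes in db/db against db/m, db/db+TSF against db/m and both db/db groups against db/m. In the same order, leaving out 1 array called 72 to 194, 213 to 563 and 231 to 422 genes, and leaving out both named arrays 114, 271 and 350.

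Enzymes near 0 changed sign under some settings, and none of those values passed; the cause was not tested. With both named arrays left out, Sardh was 0.0305 and Pipox 0.0189 in db/db against db/m, Prodh2 -0.116 and Sardh -0.0454 in db/db+TSF against db/db, and Sardh 0.00784 and Dmgdh 0.0338 in both db/db groups against db/m. With array weights, Pipox was 0.0174 in db/db against db/m, Sardh 0.0598 in db/db+TSF against db/m, and Sardh 0.0294 and Dmgdh 0.01565 in both db/db groups against db/m. With median scaling, Shmt1 was -9.085e-05 and Agxt2 -0.022 in db/db+TSF against db/m, and with the mean of both probe sets Sardh was 0.01745 there. With 1 array left out, db/db against db/m ran from -0.0305 to 0.133 for Gatm, -0.155 to 0.0305 for Sardh, -0.0683 to 0.0342 for Pipox and -0.0421 to 0.232 for Agxt2. In db/db+TSF against db/db it ran from -0.0379 to 0.187 for Prodh2, -0.0455 to 0.140 for Sardh and -0.209 to 0.0654 for Agxt2. In db/db+TSF against db/m it ran from -0.0165 to 0.130 for Shmt1 and -0.073 to 0.0907 for Sardh. In both db/db groups against db/m it ran from -0.110 to 0.0533 for Sardh, -0.0424 to 0.0162 for Dmgdh, -0.101 to 0.0017 for Pipox and -0.00941 to 0.128 for Agxt2.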

Other observations

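Among 28 tested enzymes that break down other amino acids, 2 rose and 3 fell in both db/db groups against db/m, beside 1.41% and 1.53% of all genes by limma. Kynu, the kynureninase of tryptophan breakdown, averaged 8.36 in db/db+TSF, 8.32 in db/db and 7.42 in db/m, a rise of 0.92 in both db/db groups (SE 0.11, adjusted p = 0.00195) that passed in 9 of 9 fits without 1 array. Gpt, an alanine aminotransferase, rose by 0.88 (adjusted p = 0.016, 9 of 9 fits). Csad, which decarboxylates cysteine sulfinic acid to hypotaurine, averaged 7.78, 8.11 and 8.90 in db/db+TSF, db/db and db/m and fell by 0.95 (SE 0.16, adjusted p = 0.0108, 7 of 9 fits). Cbs, which opens the transsulfuration of homocysteine, fell by 0.73 (adjusted p = 0.0447, 2 of 9 fits), and Ivd, of leucine breakdown, fell by 0.51 (adjusted p = 0.0235, 6 of 9 fits). In db/db+TSF against db/m, 2 of the 28 rose and 4 fell, beside 1.22% and 1.92% of all genes. Ddc was among those 4 (-0.46, adjusted p = 0.0446, 1 of 9 fits).

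The proximal tubule markers Slc7a13, an amino acid transporter of the straight segment, and Acsm2 were the markers of that list past the threshold. Slc7a13 measured 8.54, 6.27 and 9.29 in db/db+TSF, 9.71, 9.63 and 8.75 in db/db and 10.85, 10.80 and 10.56 in db/m (difference of -2.70 between db/db+TSF and db/m, adjusted p = 0.0327, 5 of 9 fits). Acsm2 measured 10.72, 10.75 and 10.83 in db/db+TSF, 11.04, 11.03 and 10.73 in db/db and 11.32, 11.39 and 11.12 in db/m. It fell by 0.51 in db/db+TSF against db/m (adjusted p = 0.0346, 4 of 9 fits) and by 0.43 in both db/db groups against db/m (adjusted p = 0.0409, 1 of 9 fits). The remaining 12 proximal tubule markers did not pass in any of the 4 comparisons by limma.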
